A study of Mus musculus with 12 samples.

Results

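The Mir290 locus of the mouse is a cluster of 9 microRNA (miRNA) hairpin genes on chromosome 7, Mir290a, Mir291a, Mir292, Mir291b, Mir293, Mir294 and Mir295 on the plus strand and Mir290b and Mir292b on the minus strand. Its members were found by symbol (Mir290 to Mir295) and by position, across 70 kb of chromosome 7 (mm10 chr7:3170000-3240000). By symbol these were 9 of 2202 miRNA-type transcripts, among 137767 transcripts quantified. By position the locus held 36 of the 128567 peaks of 7 chromatin immunoprecipitation sequencing (ChIP-seq) lists. The locus was chosen by its Ctr9 fold enrichment in mouse embryonic stem cells (mESCs), with its peaks known, so both are described here and not tested.

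The study profiled Ctr9, a core subunit of the elongation complex Paf1C, in mESCs of the E14 line and in NIH3T3 fibroblasts. The mESC profiles were of Ctr9-GFP, NELFA-GFP, H3K27ac and RNA polymerase II (RNAPII) marked at Ser5p or at Ser2p. Those of NIH3T3 cells were of Ctr9-GFP and H3K27ac, and RNA sequencing (RNA-seq) was made in both cell types. The samples analysed here hold no treatment. Ctr9-GFP cells carried GFP at the end of the endogenous Ctr9 gene and were pools sorted for GFP, not single clones. NELFA-GFP was a fusion of NELFA with a tag for localization and purification, and Ser5p was profiled in those NELFA-tagged mESCs. Both cell types were grown in the same medium with leukaemia inhibitory factor. Each of the 9 profiles with a file was 1 library, so no difference between cell types or marks has a replicate check, and a difference between cell types cannot be told apart from a difference between libraries. All 6 mESC markers (Pou5f1, Sox2, Nanog, Zfp42, Esrrb, Dppa5a) were more than 2-fold higher in the mESC library, and all 6 fibroblast markers (Col1a1, Col1a2, Thy1, Postn, Vim, Fn1) were more than 2-fold lower. The summed level of the mESC markers was 5734 TPM (a length-scaled share of the library) in mESCs and 0.993 TPM in NIH3T3 cells, with Pou5f1, Sox2, Zfp42 and Esrrb listed at 0 there. The summed level of the fibroblast markers was 244 TPM in mESCs and 4401 TPM in NIH3T3 cells.

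The miR-290 family is made as one long primary transcript, which Drosha and Dgcr8 cut into hairpins and Dicer cuts into mature miRNAs. It is the most abundant miRNA family of mESCs, is silenced on differentiation, and is known for speeding passage from G1 to S phase by repressing cell cycle inhibitors. A miRNA finds its targets mainly through its seed, the bases near its 5′ end. RNAPII carries the Ser5p mark from initiation into early elongation and the Ser2p mark in productive elongation. NELF holds RNAPII paused near the start, Paf1C travels with it, and H3K27ac marks active promoters and enhancers.

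RefSeq (GRCm38) held 17 mature sequences for the 9 genes, and all 25 of the cluster's hairpin and mature sequences in its table matched the genome at their positions. The table held no miR-292a-3p, so the counts of seeds here are without it. The 17 had 11 different seeds (bases 2 to 8). AAGUGC at bases 2 to 7 was shared by 5 of them, out of 8 among the 1738 mature miRNAs of the table. These 5 are printed with the seed in capitals, because this seed defines the family's known targets, followed by miR-302b-3p from another locus with the seed of 3 of them and by miR-293-3p, whose seed differs.
miR-290a-3p: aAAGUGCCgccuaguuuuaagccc
miR-291a-3p: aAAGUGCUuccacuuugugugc
miR-291b-3p: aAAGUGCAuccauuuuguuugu
miR-294-3p: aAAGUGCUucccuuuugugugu
miR-295-3p: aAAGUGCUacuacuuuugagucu
miR-302b-3p: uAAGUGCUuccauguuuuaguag
miR-293-3p: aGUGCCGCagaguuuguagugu
The seed AAGUGCU was that of miR-291a-3p, miR-294-3p and miR-295-3p. Outside the cluster, miR-302b-3p and miR-302d-3p of the Mir302 locus had it in this table. Whether the table lacks further mature miRNAs was not checked, so other carriers of these seeds may exist. AAGUGCA of miR-291b-3p was also the seed of miR-350-5p, and AAGUGCC of miR-290a-3p had no other carrier in the table, which was without miR-292a-3p of the same cluster. GUGCCGC of miR-293-3p had none either. On the other arm, CUCAAA at bases 2 to 7 was carried by 6 mature miRNAs of the cluster and by no other miRNA of the 1738. Of these, 3 that share the whole seed CUCAAAC are shown.
miR-290a-5p: aCUCAAACuaugggggcacuuu
miR-292a-5p: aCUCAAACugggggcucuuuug
miR-293-5p: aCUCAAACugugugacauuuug

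The plus-strand hairpins spanned 2216 bases, from the start of Mir290a (chr7:3218626-3218708) to the end of Mir295 (chr7:3220773-3220841). In the GENCODE annotation, 7 of the 9 hairpins lay inside the last exon of Nlrp12 (chr7:3218784-3222560, minus strand), in its 3′ untranslated region, antisense to the gene except for Mir292b. Mir290a and Mir290b lay outside it. RefSeq gives a long noncoding RNA, D7Ertd143e, on the plus strand over 7 hairpins (chr7:3218784-3221015), which was not analysed here as a transcript.

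In mESCs the cluster was covered by Ctr9 and by both RNAPII forms along its whole length, and the peaks of these 3 profiles there stood at or near the top of their lists. The Ctr9 peak (chr7:3217737-3223936, 6200 bp) had a fold enrichment over local background of 52.3 at its summit and a −log10 q of 417. It ranked 1 of 44748 Ctr9 peaks by fold, the measure for which the locus was chosen, and 304 by width. The second-highest Ctr9 peak, nearest to Tprg, had 43.2. The Ser2p peak (chr7:3218629-3223607, 4979 bp) had a fold of 27.6 and ranked 1 of 1675 by fold and by q, and 2 by width. The Ser5p peak (chr7:3217506-3223609, 6104 bp) had a fold of 30.4 and ranked 3 of 4490 by fold, 9 by width and 25 by q. Folds of different lists come from different antibodies and depths, so between lists only ranks are compared, and where folds of several lists are given for 1 locus each is read within its own list.

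**Figure D1:**
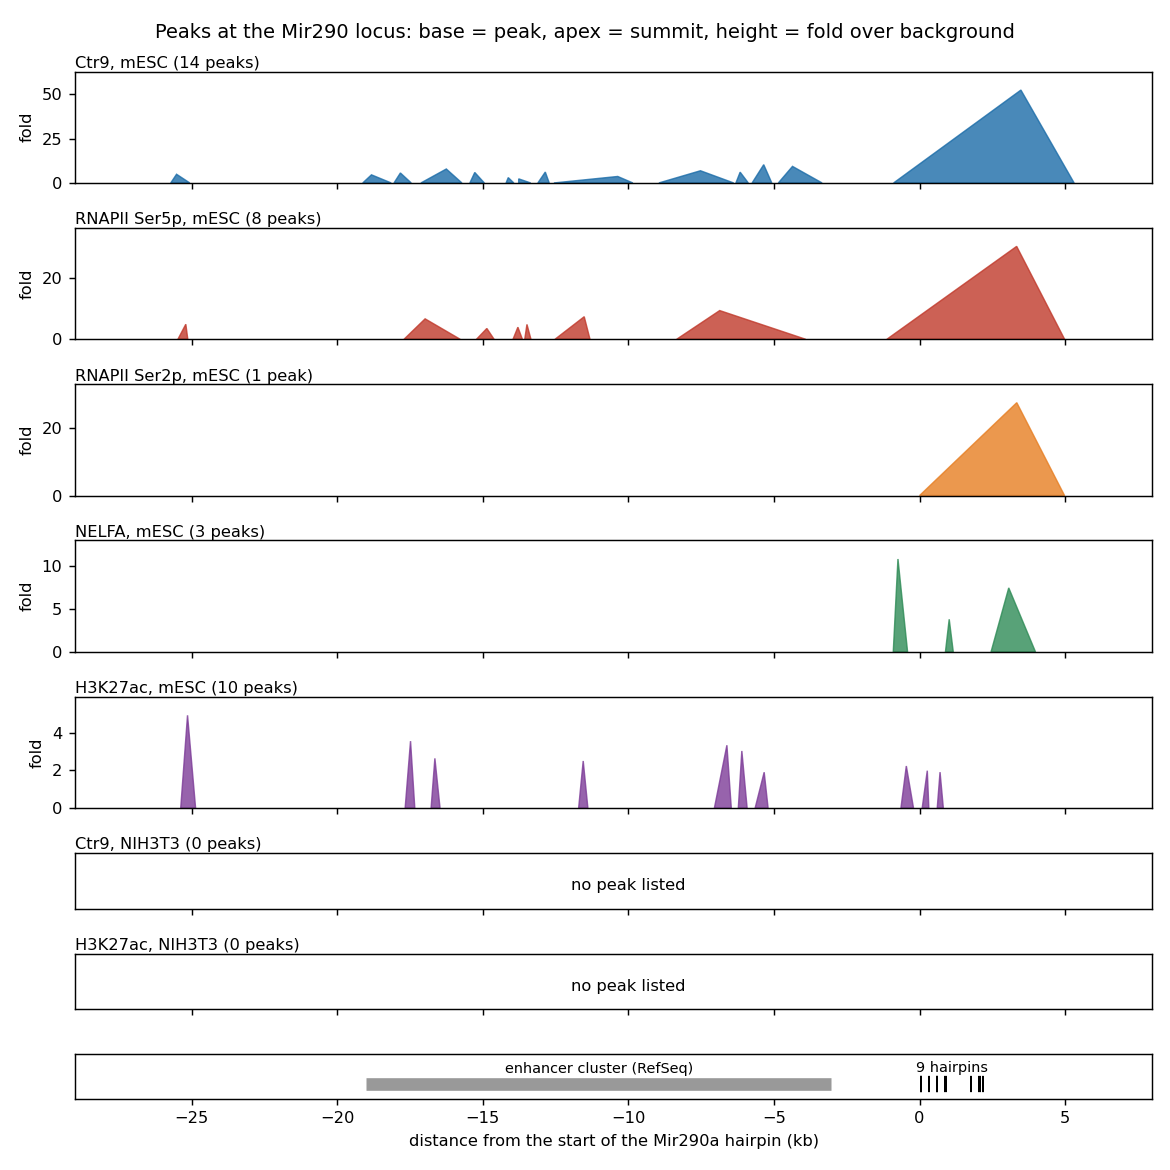
Peaks of the 7 lists at the Mir290 locus against the distance in kb from the start of the Mir290a hairpin; each triangle is 1 peak, with its base on the peak, its apex at the summit and its height the fold, on an axis of its own for each list. The highest triangles of Ctr9 (52.3), Ser5p (30.4) and Ser2p (27.6) stand over the hairpins, H3K27ac stays at or below 4.91, and both NIH3T3 lists are empty; no peak of the 70 kb lies outside the range drawn.

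Neither NIH3T3 list had a peak anywhere in the 70 kb. The nearest Ctr9 peak in NIH3T3 cells lay 49678 bp after the locus and the nearest H3K27ac peak 34972 bp after it. In the mESC lists the locus held 14 Ctr9, 10 H3K27ac, 8 Ser5p, 3 NELFA and 1 Ser2p peak. Of 38926 windows of 70 kb across the genome, 17.4% held a Ctr9 peak in mESCs, 25.6% an H3K27ac peak, 5.41% a Ser5p peak, 4.16% a NELFA peak and 2.34% a Ser2p peak. In NIH3T3 cells 11.0% held a Ctr9 peak and 28.2% an H3K27ac peak, so most windows were without a peak there too. A Ctr9 peak in mESCs and none in NIH3T3 cells, as at Mir290, was found in 9.03% of windows, or 51.8% of those with a Ctr9 peak in mESCs. All 5 mESC lists met in 459 windows (1.18%), and in 16 of them (0.0411% of all windows, 3.49% of the 459) neither NIH3T3 list had a peak, as at Mir290. By bases under peaks the locus would rank 6 among the windows for Ser5p (15143 bp), 12 for NELFA (2288 bp), 20 for Ser2p (4979 bp), 117 for H3K27ac (3676 bp) and 256 for Ctr9 (19286 bp).

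**Figure D2:**
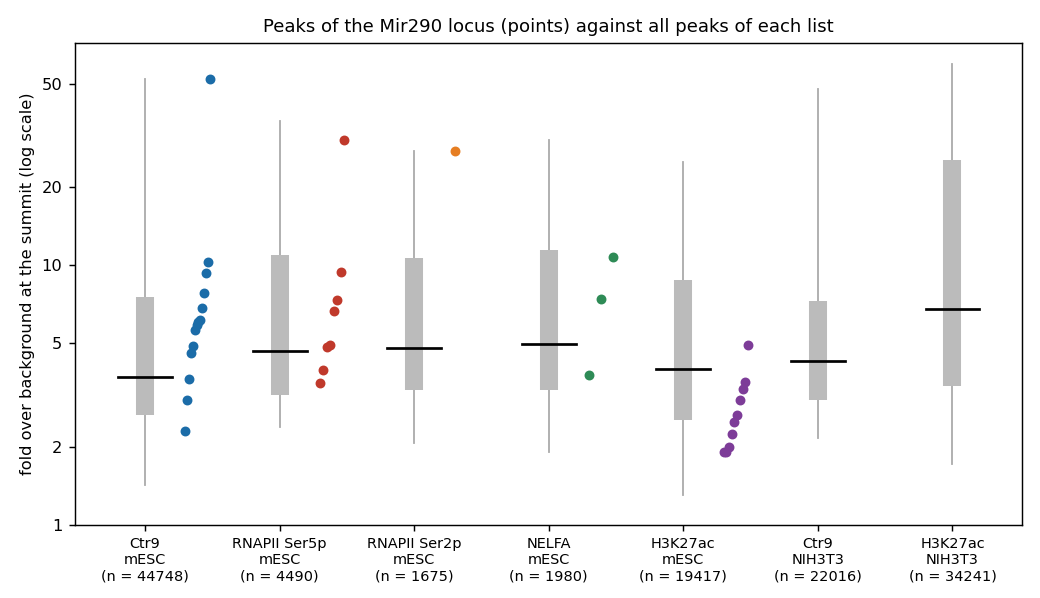
Fold over background at the summit (log scale) of the peaks at the Mir290 locus (coloured points, sorted) beside all peaks of each list (thin line, lowest to highest; thick bar, 5th to 95th percentile; black line, median). The locus holds the highest Ctr9 and Ser2p folds of their lists, while 9 of its 10 H3K27ac peaks lie below the H3K27ac median of 3.97.

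The hairpins were covered unevenly by the 5 mESC profiles. All 9 lay inside the Ctr9 peak and inside the Ser5p peak. Inside the Ser2p peak lay 8, and Mir290a was cut by its left edge, which fell 3 bp into the hairpin. Mir291a, Mir292 and Mir292b were met in part by H3K27ac peaks and Mir291b in part by a NELFA peak. The remaining hairpins had no H3K27ac or NELFA peak on them.

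The strongest summits of Ctr9, Ser5p and Ser2p lay together, past the last hairpin. The Ser5p summit (3221963) and the Ser2p summit (3221967) were 4 bp apart, and the Ctr9 summit (3222109) followed 146 and 142 bp later. These lay 1122, 1126 and 1268 bp beyond the end of Mir295, and 948, 952 and 1094 bp beyond the end of D7Ertd143e. NELFA had 3 summits over the same stretch. The strongest (3217886, fold 10.8, rank 110 of 1980) lay 740 bp before the start of Mir290a. A weak one (3219646, fold 3.78, rank 1728) lay 1020 bp after that start, and the last (3221691, fold 7.43, rank 276) lay 418 bp before the Ctr9 summit. The last NELFA peak was 1527 bp wide and ranked 18 of 1980 by width. NELFA was thus listed before, within and after the hairpin run, with a gap of 1297 bp between its last 2 peaks that held Mir293, Mir294 and Mir295.

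**Figure D3:**
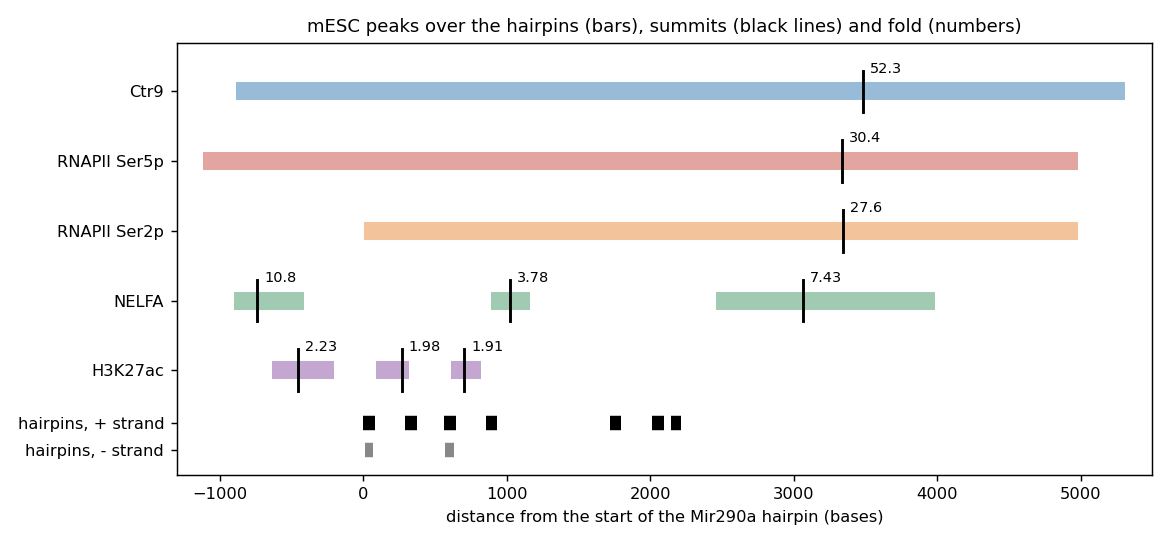
The mESC peaks over the hairpins, drawn against the distance in bases from the start of the Mir290a hairpin; bars are peaks, black lines summits and numbers folds, and the hairpins of each strand are drawn at the bottom. The Ctr9 (52.3), Ser5p (30.4) and Ser2p (27.6) summits fall within 146 bp of each other past the last hairpin, and the strongest NELFA summit (10.8) lies 740 bp before the first.

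The sequence under the strongest NELFA summit is shown because it is the place upstream of the hairpins where NELFA, Ctr9 and Ser5p peaks coincide. It holds 300 bases of the plus strand (mm10 chr7:3217736-3218035), centred on the summit, and capitals mark TATATAA, letters of the TATA box, chosen after the sequence was seen.
NELFA summit region: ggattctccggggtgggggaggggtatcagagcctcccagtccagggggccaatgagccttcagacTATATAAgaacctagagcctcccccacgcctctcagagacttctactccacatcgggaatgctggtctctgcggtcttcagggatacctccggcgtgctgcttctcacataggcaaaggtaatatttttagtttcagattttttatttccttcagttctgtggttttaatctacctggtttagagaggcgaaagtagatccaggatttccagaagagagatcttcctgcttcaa
TATATAA began 84 bp before the NELFA summit and 824 bp before Mir290a. On either strand it was found in 1065 of 32851 RefSeq promoter windows of 300 bases, and in 2.93% of the windows of 150 bases to each side of NELFA summits. The Ser2p peak began 827 bp after the start of these letters, whereas the Ctr9 and Ser5p peaks began 65 and 296 bp before it. Of other motifs searched within 150 bases of the 36 summits, the octamer ATGCAAAT of POU factors and TCAAGGTCA of Esrrb were at none of them, against 1.17% and 1.01% of all Ctr9 summits. TTCNNNGAA of STAT factors was near 2 of 14 Ctr9 summits, 3 of 10 H3K27ac summits and 3 of 8 Ser5p summits, against 7.99%, 7.01% and 7.29% of these lists, and near no NELFA or Ser2p summit. Neighbouring summits share part of these windows. TATATAA itself was also near 1 Ctr9 summit of the enhancer cluster (3214264), against 2.36% of the Ctr9 list. Another TATA box form searched, TATAAA, was near 0 of the 3 NELFA summits, against 10.2% of the NELFA list. It was near 2 of 14 Ctr9 and 2 of 10 H3K27ac summits, in the enhancer cluster, against 12.3% and 7.09%. It was also near 1 of 8 Ser5p summits and the 1 Ser2p summit, past the hairpins, against 11.6% and 12%. These letters are a description of short windows.

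Upstream of the hairpins, RefSeq annotates an enhancer cluster of Mir290 (chr7:3199611-3215602), known as a super-enhancer of mESCs. Ctr9 and Ser5p were spread over it and Ser2p and NELFA were not listed there. Peaks of Ctr9 covered 77.1% of its 15992 bp with 12 summits, at folds of 2.3 to 10.3. Ser5p covered 54.4% with 6 summits, at folds of 3.53 to 9.39, and H3K27ac 14.3% with 6 summits, at folds of 1.90 to 3.55. The hairpin domain (chr7:3217506-3223936, 6431 bp) was drawn around the peaks on the hairpins, from the start of the Ser5p peak to the end of the Ctr9 peak. Its coverage was 96.4% for Ctr9, 94.9% for Ser5p, 77.4% for Ser2p, 35.6% for NELFA and 13.6% for H3K27ac. High coverage by Ctr9 and Ser5p was fixed by this definition, so these shares cannot be set against those of the annotated enhancer cluster. No list had a peak in the 1903 bp between the 2 stretches, and none in the 16064 bp after the hairpin domain.

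Within the enhancer cluster the Ctr9 peaks differed among themselves. The weakest, at summit 3204861, had a fold of 2.3 and lay above only 0.769% of the list. The strongest, at summit 3213276, had 10.3 and lay above 97.7% of the list, and its neighbour at 3214264 had 9.32. The strongest Ctr9 summit was 15 bp from an H3K27ac summit (3213291, fold 1.90), and another Ctr9 summit (3212466, fold 6.07) was 58 bp from an H3K27ac summit (3212524, fold 3.03). The widest Ser5p peak here (chr7:3210287-3214715, 4429 bp, fold 9.39) ranked 23 of 4490 by width and overlapped the 4 Ctr9 peaks of the enhancer cluster that lay nearest to the hairpins. At the locus as a whole, 12 of 14 Ctr9 peaks overlapped a Ser5p peak, against 5.6% of all Ctr9 peaks, and 8 of 14 overlapped an H3K27ac peak, against 9.3%. With a Ser2p or a NELFA peak, 1 of 14 overlapped in each case, against 2.4% and 1.82%. All 10 H3K27ac peaks of the locus overlapped Ctr9 and Ser5p peaks, against 23.1% and 15.0% of the H3K27ac list. All 3 NELFA peaks overlapped Ctr9 and Ser5p peaks, against 43.1% and 65.0% of the NELFA list, and 2 of 3 overlapped Ser2p, against 10.1%. With H3K27ac 1 of 3 overlapped, against 84.1% of the NELFA list. Neighbouring peaks of 1 locus are not independent of each other.

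A further site stood alone about 25 kb before Mir290a. There a Ctr9 peak (summit 3193110, fold 4.89), an H3K27ac peak (summit 3193487, fold 4.91) and a Ser5p peak (summit 3193428, fold 4.91) overlapped. This H3K27ac fold was the highest of the 10 at the locus.

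The H3K27ac folds were low within their list, both over the hairpins and in the enhancer cluster. All 6 folds in the enhancer cluster lay below the list's median of 3.97. The cluster peak at summit 3213291 had the lowest fold of the 10, 1.90, and ranked 19374 of 19417. Those at 3207076 and 3201982 had 2.50 and 2.64 and ranked 18590 and 18086. The 3 peaks in the hairpin domain had folds of 2.23, 1.98 and 1.91 and ranked 19164, 19354 and 19373. Of the 100 Ctr9 peaks with the highest folds, 71 overlapped an H3K27ac peak, and the median of the highest H3K27ac fold at them was 5.30. The 2.23 at Mir290 was the lowest of the 71. By −log10 q, the order was less extreme, as Mir290 had 8.05 and 4 of the 71 had less.

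The fold and the p-value together made it possible to recover what each was computed from. MACS2 gives the fold at a summit as the pileup of fragments plus 1 over the local background plus 1, and the p-value as the Poisson upper tail of that pileup. For all 44748 Ctr9 and all 19417 H3K27ac peaks of mESCs, a whole-number pileup returned the listed −log10 p within 0.02. In the other 5 lists this held for 7.37% to 12.5% of peaks, and their pileups are not given. The Ctr9 summit at Mir290 had 309 fragments over a background of 4.93, the lowest of the list and shared with 26.2% of its peaks. Its pileup ranked 4 of 44748. The other 13 Ctr9 peaks of the locus had pileups of 23 to 77 over backgrounds of 4.93 to 10.4, against medians of 25 and 5.65 in the list.

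H3K27ac looked different on this scale. Its 10 peaks had pileups of 59 to 188 fragments, all above the median of 53, and the highest (summit 3212011, in the enhancer cluster) ranked 967 of 19417 by pileup but 13613 by fold. The background under 9 of the 10 was 30.5 to 55.8, against a median of 12.1 and a 90th percentile of 25.3 in the list. At the lone site 25 kb upstream it was 11.8. Over the hairpins the pileups were 83, 67 and 59 and the backgrounds 36.6, 33.3 and 30.5. Among H3K27ac peaks within 10% of the same −log10 q, the fold of the hairpin-domain peak with 2.23 lay above only 1.99%. All 16406 H3K27ac backgrounds above the list's lowest value were whole multiples of 0.02 (within 0.1 of a step), the share of 1 read spread over 10 kb when a fragment is 200 bases, whereas 15.8% of the Ctr9 backgrounds were. The control library behind the H3K27ac list is not given in the sources used here, and the part that the local background had in the low folds was not tested beyond these values.

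**Figure D4:**
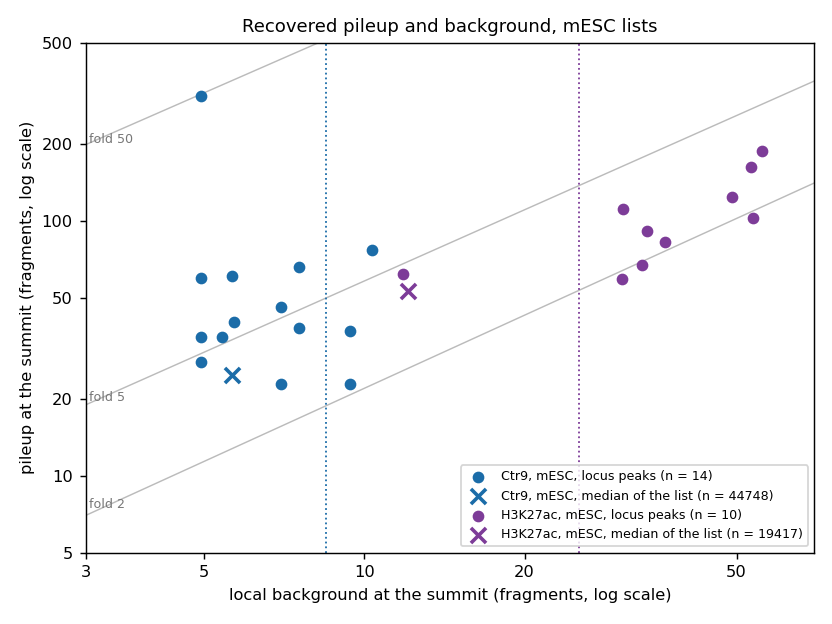
Pileup of fragments at the summit against the local background, both on log scales, for the 14 Ctr9 and 10 H3K27ac peaks of the Mir290 locus in mESCs; crosses are the medians of the lists, dotted lines the 90th percentile of each list's background, and grey lines join points of equal fold. The Ctr9 peak at the hairpins has 309 fragments over 4.93, while 9 H3K27ac peaks lie to the right of their list's 90th percentile of 25.3.

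Set against other strong Ctr9 peaks, the Mir290 peak was also high in RNAPII and absent from NIH3T3 cells. Of the 100 Ctr9 peaks with the highest folds, 97 overlapped a Ser5p peak, 100 a Ser2p peak, 64 a NELFA peak, and 76 a Ctr9 peak of NIH3T3 cells. The Ser5p fold at Mir290 was above that of all 96 others that had one, where the median of the 97 was 11.8. The Ser2p fold was above all 99 others, where the median was 9.33. The NELFA fold of 10.8 was above 38 of the 64.

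Among 1802 miRNA loci (hairpins within 10 kb merged, with 10 kb on each side), 29.9% had a Ctr9 peak in mESCs, and Mir290 came first for Ctr9, Ser5p and Ser2p. The next loci for Ctr9 were Gm22133 near Ftl1 (43.0), Gm44314 among histone genes (39.7), Gm49346 near Eif4a2 (37.8), Snord43 near Rpl3 (34.9) and Mir3064 near Ddx5 (34.4). All 5 of these also had a Ctr9 peak in NIH3T3 cells, at folds of 7.75 to 40.9. Across the loci 18.1% had a Ctr9 peak and 30.9% an H3K27ac peak in NIH3T3 cells. For Ser5p, with a peak at 9.05% of loci, the second locus had 28.6 against 30.4 at Mir290. For Ser2p, with a peak at 6.27%, it had 23.4 against 27.6. Mir290 ranked 17 for NELFA, where 5.55% of loci had a peak, and 350 of the 402 loci with an H3K27ac peak (22.3%) by the highest fold, 3.33. By bases under H3K27ac peaks it ranked 18 (2205 bp). The pattern over the 7 lists most like that of Mir290, by Euclidean distance of log2 of the highest fold plus 1, was that of Gm22174 near Gtsf1l, at a distance of 2.60, which had Ctr9 at 31.3, Ser2p at 12.04 and Ser5p at 8.34. The distances of Mir124a-1, Mir135b, Gm44454 and Mir6927 were 4.70 to 5.03. All 5 mESC lists had a peak at 56 loci (3.11%), and of these Mir290 and Gm22174 were the 2 (0.111% of all loci) with none in NIH3T3 cells.

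Other miRNA clusters known from stem cells and fibroblasts had other patterns. The Mir302 cluster, which carries the same seed and lies within Larp7, had no Ctr9, Ser5p, Ser2p or NELFA peak in mESCs within 10 kb, and had H3K27ac at 9.67 in mESCs and 24.5 in NIH3T3 cells. Mir17 to Mir92-1, a growth-promoting cluster, had Ctr9 in both cell types, at 11.8 in mESCs and 8.74 in NIH3T3 cells. The Mir106a to Mir363 cluster had 1 Ctr9 peak in mESCs (4.55) and no other peak. The Mir182 to Mir183 cluster had Ctr9 at 9.22 in mESCs and 4.78 in NIH3T3 cells. Mir21a, abundant in fibroblasts, had Ctr9 at 4.67 in mESCs and 10.1 in NIH3T3 cells. Of the 8 loci that hold genes of let-7, a family that rises on differentiation, 4 had Ctr9 in both cell types, 1 in mESCs only, 1 in NIH3T3 cells only and 2 in neither. Mirlet7d with Mirlet7f-1 and Mirlet7a-1 had Ctr9 at 11.6 in mESCs and 11.5 in NIH3T3 cells, Mirlet7g at 12.3 and 5.16, Mirlet7i at 6.14 and 10.2, and Mirlet7e with Mir99b at 5.80 and 5.73. Mirlet7f-2 with Mir98 had it in mESCs only (3.71) and Mirlet7c-2 with Mirlet7b in NIH3T3 cells only (7.68). Mir99a with Mirlet7c-1 had no peak in the 7 lists, and Mir100 with Mirlet7a-2 had only H3K27ac peaks of NIH3T3 cells.

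The RNA-seq tables could not show the hairpins. All 9 hairpin transcripts were listed at 0 TPM and 0 estimated counts in both libraries. So were all 2202 miRNA-type transcripts and all 1902 transcripts shorter than 90 bases, while 46.2% and 44.2% of all transcripts were above 0 in mESCs and NIH3T3 cells. The effective length assigned to the 9 hairpins was 3.25 to 3.81 bases, so the limit that a count of 0 allows (3 counts) stood at 39.8 to 46.6 TPM in mESCs and 36.6 to 42.8 TPM in NIH3T3 cells, counting error only. The libraries had 26400407 and 28849497 estimated counts.

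The other transcripts annotated in the 70 kb were Nlrp12 and Gm3375. Nlrp12, an inflammasome-related gene of blood cells whose last exon lies antisense over the cluster, was not detectable at this depth. Its coding transcript had 0 counts in both libraries, and a retained-intron transcript had 2 counts in mESCs and 1 in NIH3T3 cells (0.0366 and 0.0170 TPM). Gm3375, a processed pseudogene, had 55.8 TPM in mESCs (794 counts) and 37.3 TPM in NIH3T3 cells (571 counts). The ratio of its depth-scaled counts was 1.52 (exact 95% interval 1.36 to 1.70, counting error only). No peak of any list lay on it, and as a pseudogene it can share reads with its parent gene, so its level is uncertain.

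Just outside the region, AU018091 (chr7:3154658-3169203, minus strand) had its start 797 bp before the region and 49423 bp before Mir290a. In mESCs AU018091 had 119 TPM in its main coding transcript and 3.45 TPM in a processed one, against 0 and 0.0521 TPM in NIH3T3 cells. Summed over the gene this was 9198 against 4 counts, a ratio of depth-scaled counts of 2513 (exact 95% interval 981 to 9224, counting error only). Its body held 12 Ctr9 peaks (up to 11.4), 3 Ser5p peaks (up to 5.27) and 1 H3K27ac peak (3.84) in mESCs, and no NELFA or Ser2p peak. Neither NIH3T3 list had a peak there. The peaks just left of the region lay 1609 bp (Ctr9), 1121 bp (H3K27ac) and 893 bp (Ser5p) from its edge.

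Genes that make, steer or answer to the miRNAs were read from lists compiled from textbook knowledge, on the log2(TPM + 1) scale with a difference over 2-fold as the call. TPM is the highest transcript of a gene in each library. Of 21918 protein-coding genes, 13.5% were more than 2-fold higher in mESCs and 11.3% more than 2-fold lower, with a median difference of 0. No expression filter was applied, so genes at or near 0 in both libraries count here though they cannot pass 2-fold on this scale. The lists hold mostly expressed genes, and neither these shares nor the Ctr9 shares below are matched to them for level.

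Of the factors known to bind or act at the locus, 6 of 8 were higher in mESCs and none was lower, with a median log2 difference of 4.64. Among them, Pou5f1, Sox2, Nanog and Esrrb are also mESC markers used above, so their direction is not a separate result. Pou5f1 had 1402 TPM, Sox2 364 TPM and Esrrb 211 TPM in mESCs, and all 3 of these pluripotency factors were listed at 0 in NIH3T3 cells. Nanog had 281 against 0.511 TPM, Klf4 89.7 against 26.3 TPM, and Tcf7l1, a repressor at the end of the Wnt pathway, 30.7 against 11.4 TPM. The Mediator subunits Med1 (15.9 and 20.8 TPM) and Med12 (5.01 and 8.53 TPM) differed by less than 2-fold. A Ctr9 peak lay on or within 1 kb of 7 of the 8 genes in mESCs, against 39.5% of all protein-coding genes, and of 2 in NIH3T3 cells, against 22.3%.

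Of 19 miRNA processing genes found, 2 were higher in mESCs, 3 were lower and 14 were neither, with a median log2 difference of −0.07. The 2 higher were Lin28a (155 TPM in mESCs and 0 in NIH3T3 cells) and Lin28b (6.57 and 0.485 TPM), RNA-binding proteins that block the maturation of let-7. The lower were Ago3 (1.48 and 5.06 TPM) and Ago4 (0.277 and 1.93 TPM), Argonaute proteins, and Tut7 (8.19 and 18.5 TPM), a uridyltransferase. With the transcripts of each gene summed, only Ago4 of these 3 was past 2-fold, as Ago3 (4.84 and 9.21 TPM) and Tut7 (29.2 and 55.3 TPM) were not. The hairpin-cutting enzymes were at like levels, with Drosha at 51.3 and 39.7 TPM, its partner Dgcr8 at 28.6 and 30.0 TPM, and Dicer1 at 15.5 and 13.6 TPM. Ago2, the Argonaute that can cut targets, had 21.8 and 19.7 TPM.

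Of 14 genes known as targets of the family, 5 were lower in mESCs, 2 were higher and 7 were neither, with a median log2 difference of −0.75. With the transcripts of each gene summed, 5 were lower and 3 higher, as Ei24 (78.0 against 38.4 TPM) passed 2-fold. The lower ones were Lats2, a Hippo pathway kinase, at 1.34 against 13.3 TPM, Tgfbr2, a TGF-beta receptor, at 1.36 against 14.8 TPM, Akt1, a growth kinase, at 16.8 against 105.9 TPM, Irf2, an interferon-related factor, at 0.469 against 8.96 TPM, and Cdkn1a, the cell cycle inhibitor p21, at 11.4 against 33.0 TPM. Against the list's name, Wee1, a kinase that delays mitosis, had 32.6 against 14.8 TPM, and Fbxl5, a ubiquitin ligase subunit of iron balance, 36.3 against 15.5 TPM. Rbl2, a retinoblastoma relative, had 2.64 and 6.04 TPM, and Mbd2, a methyl-DNA binding protein, 28.5 and 57.03 TPM, both under the 2-fold call. The fibroblast markers moved in the same direction as the lower targets, and their part in it was not tested.

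**Figure D5:**
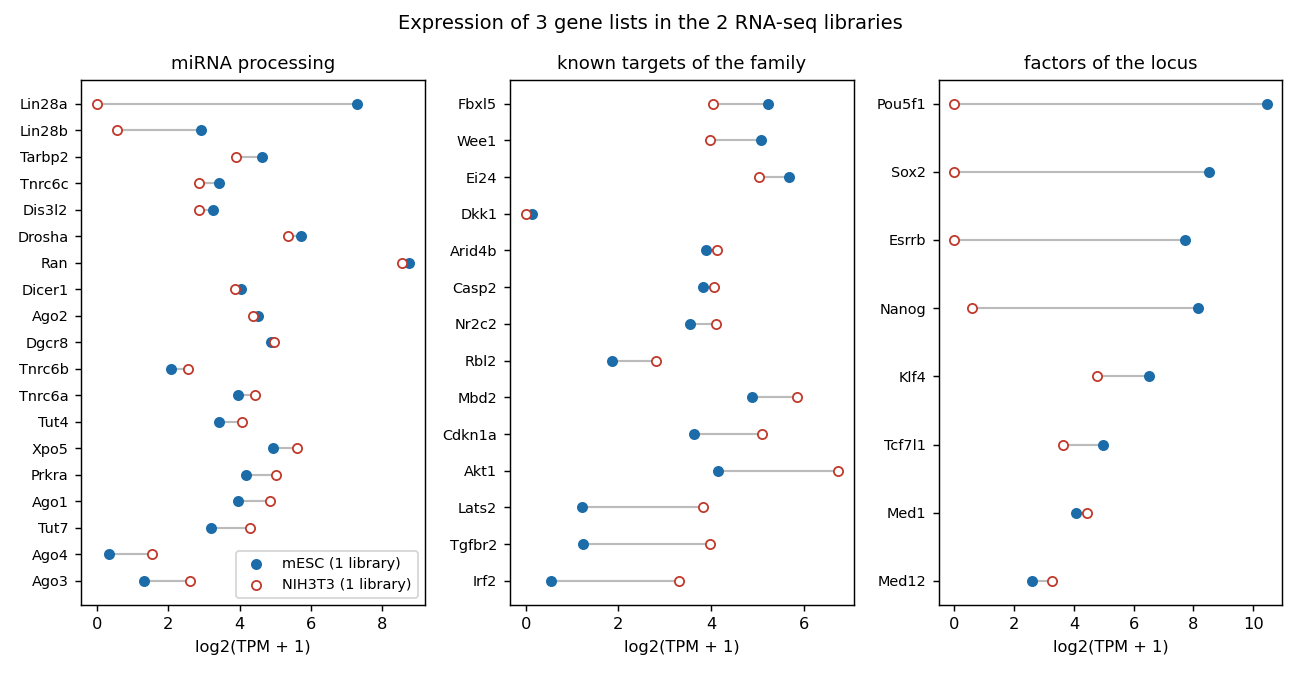
Level of the genes of 3 lists as log2(TPM + 1) in the mESC library (filled) and the NIH3T3 library (open), 1 library each and without error bars; genes are ordered by their difference. Of the 14 known targets 5 are over 2-fold lower in mESCs and 2 higher. Of the 19 processing genes 3 are lower (1 with transcripts summed) and 2 higher. Of the 8 factors of the locus 0 are lower and 6 higher. Over all protein-coding genes, not matched for level, 11.3% are lower and 13.5% higher.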

How the data were processed

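ChIP-seq and RNA-seq of mESCs and NIH3T3 cells were analysed from the deposited files, with 1 library a group (9 of 12 samples; the 3 inputs were not used here as tables). Per the study's methods, the authors aligned ChIP-seq reads to mm10 with Bowtie2 2.3.5.1, removed blacklisted regions and ran MACS2 2.2.6 on each library, keeping peaks of q-value up to 0.01. Each deposited peak has a fold enrichment over local background (a ratio), a −log10 p, a −log10 q and a score that is 10 times the −log10 q. The authors made the RNA-seq tables with kallisto 0.46.1, and the deposited values are estimated counts and TPM per GENCODE M19 transcript.

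From these, peaks overlapping the locus by at least 1 bp were listed, ranked within their lists and compared with windows of 70 kb and with miRNA loci. Pileup and background at each summit were solved from the fold and the −log10 p, on whole-number pileups. Gene differences are log2(TPM + 1), with exact Poisson or exact conditional 95% intervals on counts. Python 3.11.15, pandas 2.3.3, NumPy 2.4.6 and SciPy 1.17.1 were used, and the steps were tested on simulated data. With 1 library a group no test between groups was run and no p-value is given. ChIP-seq depth is unknown from the peak lists. The members, lists and comparisons were chosen with earlier results of these data known. Named were all genes of the cluster and the locus, list genes past 2-fold or at the extremes, the 5 miRNA loci next in Ctr9 fold, the 5 most like Mir290, and a few well-known miRNA clusters. List symbols Zcchc11 and Zcchc6 are older names of Tut4 and Tut7 and gave no rows. In the list of factors of the locus, 1 planned gene is not reported here, and the counts and median of that list are without it.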

Additional observations from a re-analysis of the deposited data

How the results depend on the processing

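Of 84 alternative values over 32 results, 72 stayed within 1.5 times the value reported, 12 moved further and none changed sign. With the region narrowed to 10 kb on each side of the hairpins, 6 Ctr9, 6 H3K27ac and 2 Ser5p peaks remained to be counted, by construction of the smaller region. The Ctr9 peak ranked 1 by fold and by q but 304 by width. Among windows, ranking by highest fold in place of covered bases gave 1 for Ctr9, 5243 for H3K27ac, 77 for NELFA, 3 for Ser5p and 1 for Ser2p. At a −log10 q of at least 5 the H3K27ac window rank was 189, since 2 of its weak peaks at the hairpins were left out. With 2 kb on each side in place of 10 kb, Mir290 ranked 172 among miRNA loci for H3K27ac. Only its hairpin-domain peaks were then included, with a highest fold of 2.23 in place of 3.33. The number of loci with an H3K27ac peak at 2 kb is not given, so this rank cannot be read as a rise from 350 of 402. With the transcripts of a gene summed, 1 miRNA processing gene (Ago4) in place of 3 was lower in mESCs. The cause of these last 2 shifts was not tested. No paired analysis was possible because each group had 1 library, and leaving out a replicate was not possible for the same reason. The peak lists hold no signal below the calling threshold, so a locus without a peak in NIH3T3 cells may still have reads there. Folds on the log2(TPM + 1) scale understate the difference of low genes.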

Other observations

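The mature miRNA pairs that face each other across the strands of the cluster overlapped in position. miR-290a-5p (chr7:3218639-3218660) and miR-290b-3p (chr7:3218638-3218659) were read from opposite strands of nearly the same bases, as were miR-292a-5p (chr7:3219200-3219221) and miR-292b-3p (chr7:3219198-3219218). The seeds of the minus-strand pair members, AGUGCCC and AGAGCCC, had no other carrier among the 1738 mature miRNAs of the table.

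The locus most like Mir290 over the 7 lists, Gm22174 (chr2:163092899-163093023), had 1 H3K27ac peak at a low fold (2.84) beside a Ctr9 fold of 31.3, and a NELFA fold of 3.58. It ranked 7 of 1802 miRNA loci for Ctr9 and 393 for H3K27ac.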
